A study of Mus musculus with 39 samples.

Results

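The 9 genes described here, Pax6, Lhx2, Emx1, Emx2, Dmrta2, Nr2f1, Nr2f2, Nr2e1 and Sp8, encode transcription factors that pattern the embryonic cerebral cortex. Their members in the data were all peaks of Notch or RBPJ binding for which the closest protein-coding start site on mm10 was that of one of these genes. This gave 63 of the 20809 consensus peaks on the nuclear chromosomes, and all 9 genes had at least 2 of them. In the single lists from which the consensus was merged, they had 49 of 14097 RBPJ peaks in radial glial cells (RGCs) and 11 of 3702 Notch peaks in RGCs. In intermediate progenitor cells (IPCs) they had 14 of 5497 RBPJ peaks and 12 of 2157 Notch peaks. The assignment used distance alone and no measured strength of binding. When start sites of noncoding genes were also allowed, 17 consensus peaks were assigned to the 9 genes, and within 100 kb of a start site there were 34.

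Binding was profiled by Targeted DamID (TaDa), in which a Dam methylase fused to a protein methylates adenines in GATC near the places where the fusion sits. Plasmids were electroporated in utero into the cortex of wild-type MF1 mouse embryos at E13.5 and the tissue was dissected at E14.5. The Hes5 promoter drove expression for RGCs, and the Tα1 promoter for IPCs, so each cell type is defined by the activity of a promoter on a plasmid. RBPJ was the human protein RBPJ1, fused to Dam, in 3 RGC and 3 IPC samples. Notch was the mouse intracellular domain, released from the need for a ligand, in 4 RGC and 4 IPC samples. Of the 4 RGC Notch samples, 2 carried NICD and 2 carried NΔECD, which keeps the transmembrane domain, whereas all 4 IPC samples carried NICD. The controls were 5 RGC and 4 IPC Dam-only samples, and the RBPJ and Notch lists of a cell type share them. A peak entered a list only if it was called in every pair of a fusion and a Dam-only sample, so 1 weak sample can remove it. The label of 1 of the 5 RGC Dam-only samples does not name the Notch and RBPJ tracks. The peak lists used here hold positions without heights, q-values or values of single samples. From them no replicate spread, depth or test over samples can be given, and a missing peak says only that no peak was called. They hold no expression either, so the identity of the cells was not checked against marker genes.

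Notch is a receptor for ligands on neighbouring cells, and the fragment that proteases free from its inner side acts as a transcriptional coactivator. That fragment cannot read DNA by itself and relies on RBPJ, which does. RBPJ can also sit on DNA without Notch, often together with co-repressors. RGCs are the neural stem cells of the cortex, and IPCs are their committed daughters, which divide to give neurons. The factors described here act mainly in RGCs. Pax6 and Sp8 are stronger at the rostral side, and Emx2, Dmrta2, Nr2f1 and Nr2f2 at the caudal side, and these opposing gradients set the position of cortical areas. Lhx2 gives cortical identity to the neuroepithelium, and Nr2e1 keeps neural stem cells dividing.

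Consensus peaks called in 3 or 4 lists were 4 of the 63, and lay at Pax6, Emx2 and, for a pair of them, Nr2f1. Their densest stretches of TTCCCA, the core of the word that RBPJ reads, are shown here on the plus strand of mm10. The stretches lie away from annotated exons of protein-coding genes, and exons of noncoding genes were not examined. Capitals mark TTCCCA, or its reverse complement TGGGAA, and the word TAATTA, which many homeodomain factors read. They also mark GATC, where Dam methylates.
Pax6, chr2:105677923-105678077, in an intron of Pax6: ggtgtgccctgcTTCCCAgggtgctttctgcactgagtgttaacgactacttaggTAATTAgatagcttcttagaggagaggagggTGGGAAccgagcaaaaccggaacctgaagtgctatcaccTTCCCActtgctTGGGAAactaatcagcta
Emx2, chr19:59471293-59471561, downstream of Emx2: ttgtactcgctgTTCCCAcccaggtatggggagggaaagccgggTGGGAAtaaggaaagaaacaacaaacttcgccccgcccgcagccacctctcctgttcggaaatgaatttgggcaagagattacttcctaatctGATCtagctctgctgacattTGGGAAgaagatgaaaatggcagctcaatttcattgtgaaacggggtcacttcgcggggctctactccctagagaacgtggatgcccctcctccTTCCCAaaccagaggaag
Nr2f1, chr13:78204543-78204768, upstream of Nr2f1: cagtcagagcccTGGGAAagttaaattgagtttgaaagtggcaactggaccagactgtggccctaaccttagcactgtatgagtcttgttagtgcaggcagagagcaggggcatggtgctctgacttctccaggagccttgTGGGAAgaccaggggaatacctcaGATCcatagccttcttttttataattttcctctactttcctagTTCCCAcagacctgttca
Nr2f1, chr13:78937680-78937709, far upstream of Nr2f1: cattccatcaaaTGGGAAgcagttgagagt

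The Pax6 stretch of 155 bp held 4 TTCCCA words and 1 TAATTA, and lay inside the peaks of RGC RBPJ, RGC Notch and IPC RBPJ. As many words within the same span were found in 35 of the 20809 consensus peaks (0.168%), and in 10 of the 1081 peaks of 5 kb or more (0.925%). The Emx2 stretch held 4 words, as many as 134 consensus peaks (0.644%, and 2.41% of those of 5 kb or more) held within that span, and of the 4 lists only the RGC RBPJ peak covered it. The stretch near Nr2f1 held 3 words, matched in 4.81% of consensus peaks and 13.2% of those of 5 kb or more, and lay inside the peaks of RGC RBPJ, RGC Notch and IPC RBPJ. The far Nr2f1 stretch held 1 word, as did 82.9% of consensus peaks somewhere. The number of words and the span were taken from each peak's own densest stretch, so low shares follow in part from that choice. The Pax6 peak was also the widest of all 20809, so the class of 5 kb or more does not match its width. These words are descriptions of the sequence and do not show where a protein was bound.

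The sequences directly upstream of start sites are shown for 3 genes whose 5′ end lay under an RGC RBPJ peak, since they differ in the word. Each covers the 250 bp before the 5′ end of the gene record, is written along the direction of transcription, and has the same words in capitals.
Lhx2, chr2:38339031-38339280, plus strand: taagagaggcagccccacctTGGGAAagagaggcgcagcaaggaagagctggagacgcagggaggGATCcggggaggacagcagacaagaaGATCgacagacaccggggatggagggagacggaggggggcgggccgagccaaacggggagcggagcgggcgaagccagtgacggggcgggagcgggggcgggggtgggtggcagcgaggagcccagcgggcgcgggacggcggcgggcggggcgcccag
Nr2f1, chr13:78199758-78200007, minus strand: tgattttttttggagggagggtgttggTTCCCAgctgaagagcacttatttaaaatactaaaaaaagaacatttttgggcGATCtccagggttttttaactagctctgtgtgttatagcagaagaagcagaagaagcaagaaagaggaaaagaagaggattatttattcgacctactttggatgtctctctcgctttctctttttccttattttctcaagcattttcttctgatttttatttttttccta
Pax6, chr2:105668650-105668899, plus strand: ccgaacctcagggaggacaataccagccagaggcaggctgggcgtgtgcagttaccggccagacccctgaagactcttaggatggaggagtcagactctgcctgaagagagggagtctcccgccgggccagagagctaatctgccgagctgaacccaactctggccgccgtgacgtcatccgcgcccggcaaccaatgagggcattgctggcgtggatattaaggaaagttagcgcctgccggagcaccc

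Lhx2 and Nr2f1 had 1 TTCCCA word each in this window, whereas the Pax6 window held none of the 3 words. Among the 21938 protein-coding genes, 22.1% had a TTCCCA word in the same window, 4.99% a TAATTA word and 40.8% a GATC site. Of the 9 genes, Nr2e1 had a TTCCCA word as well, and Emx1, Emx2, Dmrta2, Nr2f2 and Sp8 had none. No TAATTA word lay in any of the 9 windows.

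The 63 peaks were unevenly spread over the lists, as were all consensus peaks. RGC RBPJ was called at 49 of them (77.8%, Wilson 95% interval 66.1 to 86.3), beside 67.6% of all consensus peaks. RGC Notch was called at 10 (15.9%, 8.86 to 26.8), beside 17.7% of all. IPC RBPJ was called at 14 (22.2%, 13.7 to 33.9), beside 26.2%, and IPC Notch at 10 (15.9%, 8.86 to 26.8), beside 10.1%. All 4 intervals contain the share over all peaks. They express counting error alone and treat the peaks of 1 gene as independent. When a list had to cover 50% of a consensus peak, IPC RBPJ was called at 8 of the 63, RGC RBPJ at 49, RGC Notch at 10 and IPC Notch at 8. Nr2f1 and Nr2f2 gave 24 of the 49 RGC RBPJ peaks, and Emx1 gave none. At the level of genes, 8 of the 9 had an RGC RBPJ peak, beside 31.7% of all protein-coding genes, and 6 had an RGC Notch peak, beside 11.7%. An IPC RBPJ peak was nearest to 8 of the 9, beside 16.4% of all genes, and an IPC Notch peak to 6, beside 6.97%. All 9 had a consensus peak, beside 39.7% of all protein-coding genes. Genes with long empty surroundings can gather more peaks by this rule, and the part of that in these counts was not tested.

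**Figure D1:**
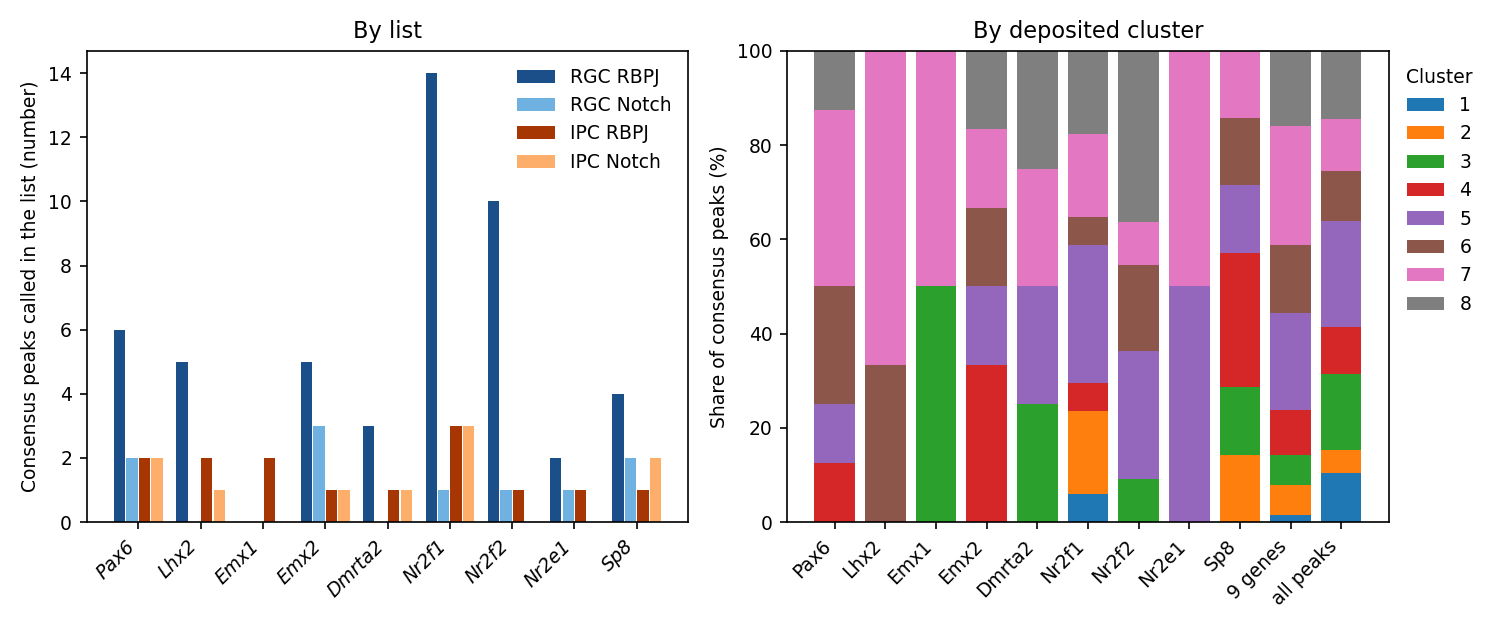
Left, the number of consensus peaks of each gene that were called in each list. Right, the share of consensus peaks (%) in each of the 8 deposited clusters, for each gene, for the 9 genes together and for all consensus peaks. RGC RBPJ gives the tallest bar at 8 of the 9 genes. Cluster 7, which holds 11.0% of all consensus peaks, takes a part of every gene's peaks.

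Most peaks were called in 1 list only, 48 of 63 (76.2%, 64.4 to 85.0), beside 82.9% of all consensus peaks. Of these, 35 belonged to RGC RBPJ (55.6% of the 63), beside 52.1% of all consensus peaks. IPC RBPJ alone had 6 (9.52%), beside 18.3%, and IPC Notch alone 5 (7.94%), beside 3.55%. RGC Notch alone had 2 (3.17%), beside 1872 of all 20809. Notch and RBPJ were both called in RGCs at 7 peaks (11.1%, 5.49 to 21.2), which lay at Pax6, Emx2, Nr2f1, Nr2f2, Nr2e1 and Sp8, beside 7.77% of all. These 7 were 70.0% of the 10 consensus peaks called by RGC Notch and 14.3% of the 49 called by RGC RBPJ. Over the whole series the corresponding shares were 43.8% and 11.5%. The share of 70.0% rests on 10 peaks and has no interval here. Those 10 had a median width of 5.39 kb, beside 2.73 kb for all consensus peaks called by RGC Notch. The part of width in the shared calls was not tested. In IPCs both proteins were called at 2 peaks, at Emx2 and far upstream of Nr2f1 (3.17%, 0.875 to 10.9), beside 2.36% of all.

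With any overlap of 1 bp counted as a call, the 2 cell types shared more peaks for RBPJ than for Notch. The same order held over all consensus peaks, and the RBPJ lists are longer. RBPJ was called in both cell types at 7 peaks (11.1%, 5.49 to 21.2), beside 6.85% of all consensus peaks. These were 7 of the 14 consensus peaks called by IPC RBPJ and of the 49 called by RGC RBPJ. The whole lists shared 26.1% of IPC and 10.1% of RGC RBPJ peaks. The 7 peaks lay at Pax6, Lhx2, Emx2, Nr2f1 and Nr2e1. Notch was called in both cell types at 1 peak, the one at the 3′ end of Emx2 (1.59%, 0.281 to 8.46), beside 2.37% of all. Both intervals contain the share over all peaks. The Emx2 peak was 1 of the 10 consensus peaks called by Notch in each cell type. The whole lists shared 13.4% of RGC and 23.5% of IPC Notch peaks. RGC Notch covered 66.2% of this Emx2 peak and IPC Notch 52.0%. At a coverage of 50%, RBPJ thus no longer shared more peaks than Notch. Among the 9 genes, peaks in 3 or 4 lists made up 6.35% (2.50 to 15.2), beside 3.88% of all.

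The consensus file assigns each peak to 1 of 8 k-means clusters of binding intensity, which the study describes by the proteins and cell types that dominate them. Cluster 7, where both proteins are bound in both cell types, held 16 of the 63 peaks (25.4%, 16.3 to 37.3) beside 11.0% of all. It had at least 1 peak at each of the 9 genes, but the share of all protein-coding genes with a cluster 7 peak is not given here. Of the 16 peaks, 8 were called in 1 list, 7 in 2 lists and 1, at Emx2, in all 4. RGC RBPJ was called at 13 of them, beside 73.7% of all peaks of cluster 7, and IPC RBPJ at 7, beside 52.9%. RGC Notch was called at 2, beside 7.86%, and IPC Notch at 4, beside 275 of all 2289. The study describes cluster 6 alike in its binding, and reports it as enriched near RGC-specific genes, Pax6 among those it names. Cluster 6 held 9 peaks (14.3%, 7.70 to 25.0) beside 10.8%, at 6 genes, where 1707 of all 21938 protein-coding genes had one. Of its 9 peaks, 4 were called by IPC Notch alone, at Pax6, Lhx2, Nr2f1 and Sp8, beside 546 of all 2241 peaks of the cluster. Cluster 2 held 4 peaks (6.35%) beside 4.76%, 3 of them at Nr2f1.

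Cluster 4, with both proteins in RGCs, held 6 peaks (9.52%) beside 9.79%, all called by RGC RBPJ, beside 81.0% of all its peaks, and 2 also by RGC Notch, beside 41.7%. Clusters 5 and 8, with RBPJ alone in RGCs, held 13 (20.6%) and 10 (15.9%) peaks beside 22.5% and 14.4%. Nr2f1 and Nr2f2 gave 8 of the 13 in cluster 5 and 7 of the 10 in cluster 8. Cluster 1, with Notch alone in RGCs, held 1 peak (1.59%, 0.281 to 8.46) beside 10.5% of all consensus peaks. That peak, far upstream of Nr2f1, was called by RGC RBPJ, as were 843 of all 2185 peaks of the cluster (38.6%). Cluster 3, with RBPJ alone in IPCs, held 4 peaks (6.35%, 2.50 to 15.2) beside 16.3%, 1 each at Emx1, Dmrta2, Nr2f2 and Sp8. The shares over all peaks lay outside the counting intervals for clusters 1, 3 and 7 and inside them for the other 5. No test over samples stands behind these shares.

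**Figure D2:**
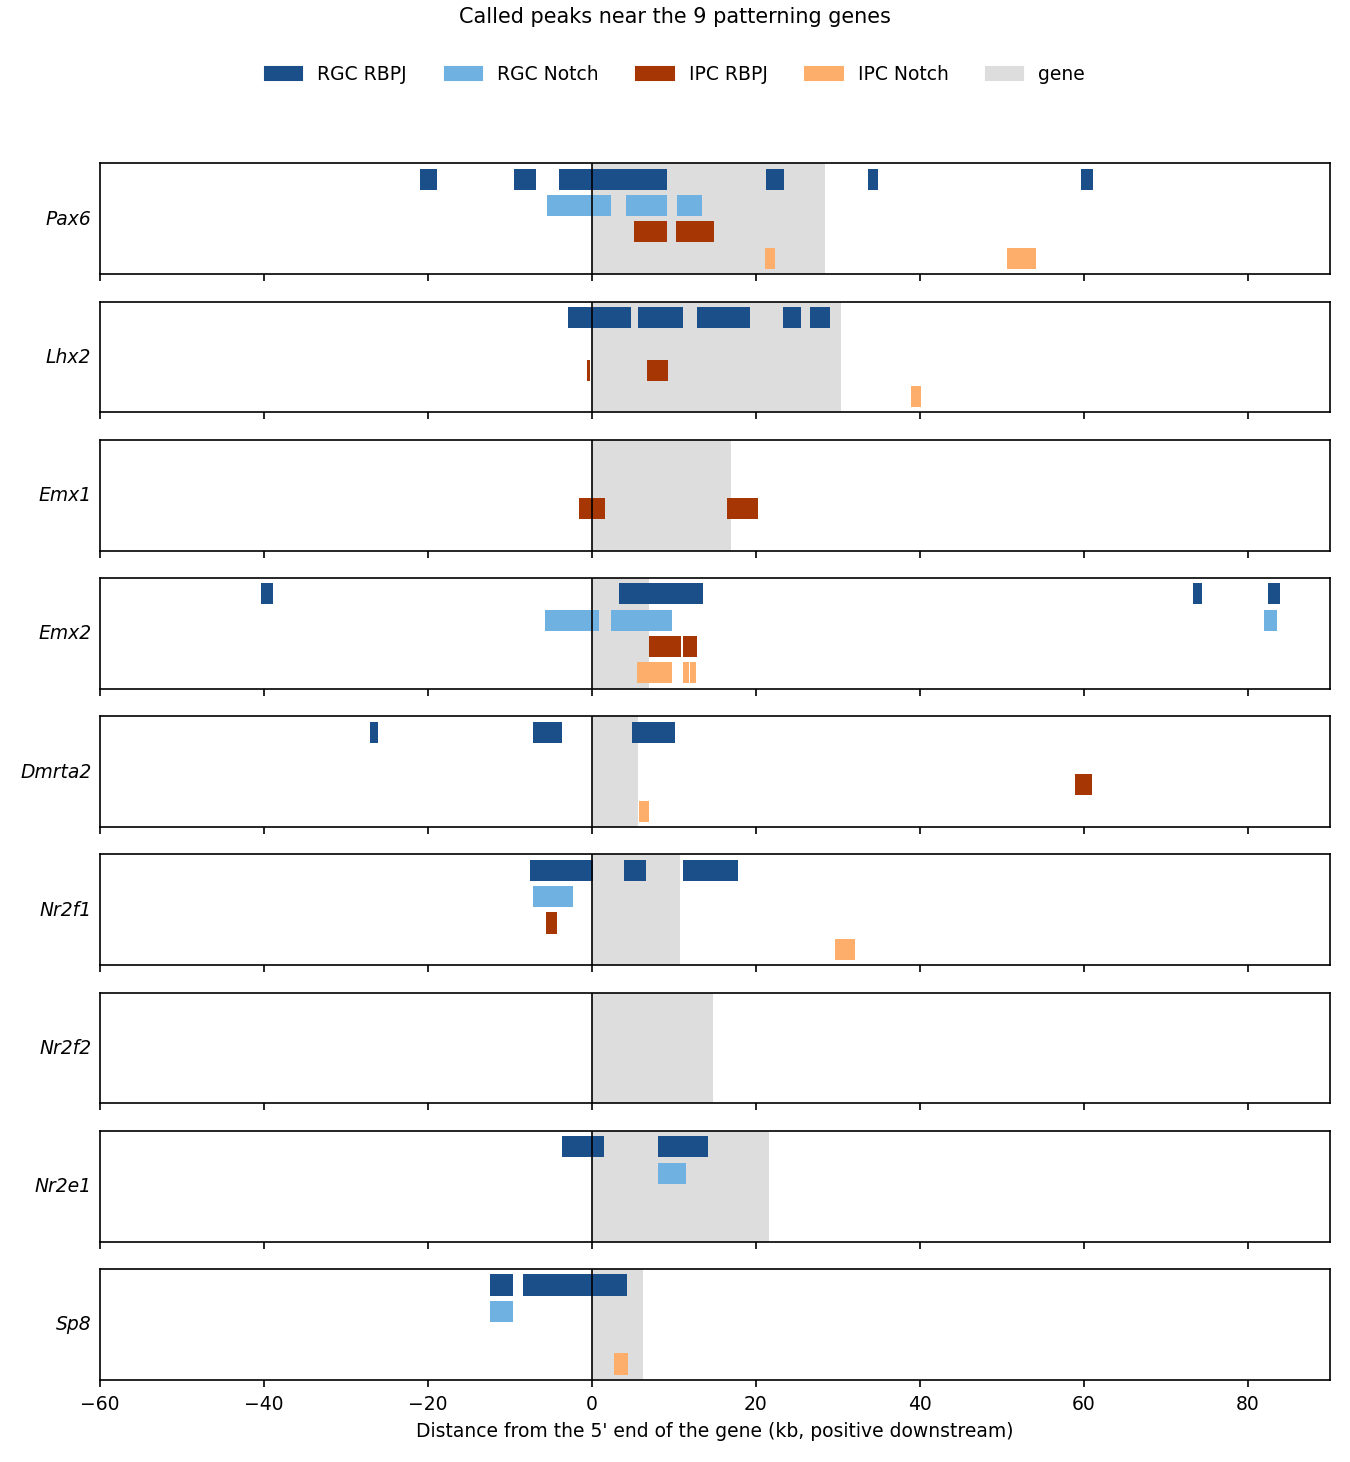
Peaks of each list from 60 kb before to 90 kb after the 5′ end of each gene, in kb along the direction of transcription, with 1 row of colour per list and the gene in grey. Lhx2 is covered by 5 RGC RBPJ peaks, Emx1 has IPC RBPJ peaks alone, and no peak lies in the window of Nr2f2. The IPC RBPJ peak within the consensus peak at the start of Nr2e1 is not drawn because its own nearest start site was that of Ostm1.

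Pax6, a paired-box homeodomain factor that marks RGCs and promotes neurogenesis, lies at chr2:105668900-105697364 on the plus strand (ENSMUSG00000027168). It had 8 consensus peaks, a number reached by 443 protein-coding genes (2.02%). The peak over its 5′ end, chr2:105663397-105678088, spanned 14.7 kb and was the widest of all 20809 consensus peaks. It was in cluster 6. It was built from an RGC RBPJ peak of 13.2 kb, with 3 peaks of that list at least as wide, itself included, RGC Notch peaks of 7.90 and 5.05 kb, and an IPC RBPJ peak of 3.99 kb. RGC RBPJ and RGC Notch covered 89.7% and 88.2% of it, whereas IPC RBPJ covered 27.2%, at its 3′ side from 5.20 kb after the 5′ end onward. The 5′ end of the gene record was thus under peaks of both proteins in RGCs and under neither IPC list. It is 1 of 24 annotated start positions of Pax6, and the IPC RBPJ peak here covered at least 1 other.

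The next Pax6 peak, 10.3 to 14.9 kb into the gene, had IPC RBPJ over its whole 4.62 kb and RGC Notch over 67.3% of it, and no RGC RBPJ peak, although it covered further annotated start sites of Pax6. It was in cluster 7. Another peak within the gene, 21.2 to 23.4 kb from the 5′ end, was called by RGC RBPJ over 2.19 kb and by IPC Notch over 1.15 kb, and was also in cluster 7. The remaining 5 peaks were each called in 1 list. Those of RGC RBPJ lay 18.9 kb upstream (2003 bp wide, cluster 5) and 6.82 kb upstream (2.66 kb, cluster 7). Downstream of Pax6, RGC RBPJ peaks of 1.28 kb (cluster 4) and 1.42 kb (cluster 8) lay in introns of Elp4, the neighbouring gene for a subunit of Elongator. An IPC Notch peak of 3.45 kb in cluster 6, chr2:105719569-105723021, lay in an Elp4 intron too, 50.7 to 54.1 kb from the Pax6 5′ end, with no other list called there. Elp4 introns are known to hold distal enhancers of Pax6, and whether the peaks here lie on those was not tested.

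Lhx2, a LIM-homeodomain selector of cortical fate, lies at chr2:38339281-38369733 on the plus strand (ENSMUSG00000000247). Of its 6 consensus peaks, 5 lay over the start or in introns of the gene and all 5 were called by RGC RBPJ. Their widths were 7.67, 5.42, 6.42, 2.23 and 2.37 kb from the 5′ end to the 3′ end, and 4 were in cluster 7 and 1 in cluster 6. No RGC Notch peak was nearest to Lhx2. IPC RBPJ was called within the peak over the 5′ end, chr2:38336447-38344117, but its peak there was 0.367 kb wide, 4.78% of the consensus peak, and ended 190 bp before the 5′ end. It was also called over 49.0% of the next peak, chr2:38344975-38350394. IPC Notch was called once, at a peak of 1.27 kb that lay 38.9 to 40.2 kb after the 5′ end, beyond the gene, with no other list. RGC Notch is called at 7.86% of all peaks of cluster 7 and 19.7% of those of cluster 6.

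Emx1 and Emx2 encode the homeodomain factors related to empty spiracles of the fly, and both are used as markers of the dorsal telencephalon. Emx1 (chr6:85187438-85204462, plus strand, ENSMUSG00000033726) was the only one of the 9 with no RGC peak assigned to it. Both of its peaks were called by IPC RBPJ alone. The peak over the 5′ end, chr6:85185867-85189085, was 3.22 kb wide and in cluster 7, and that over the 3′ end, chr6:85203980-85207676, was 3.70 kb wide and in cluster 3. No list called a Notch peak for this gene. These counts hold for the assignment used here. With 1 start site per gene, Emx1 had 3 consensus peaks, and 4 consensus peaks of any gene lay within 100 kb of its 5′ end. Under that setting the RGC RBPJ peaks of the 9 genes rose from 49 to 52. Which list called the third Emx1 peak is not given here, so it may be an RGC list.

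Emx2 (chr19:59458372-59465357, plus strand, ENSMUSG00000043969), which promotes caudal and medial area identity, had 6 peaks and held the only peak called in all 4 lists. That peak, chr19:59460686-59471996, was 11.3 kb wide, ran from inside the gene past its 3′ end and was in cluster 7. RGC RBPJ covered 90.7% of it, RGC Notch 66.2%, IPC RBPJ 49.0% in 2 peaks and IPC Notch 52.0% in 3 peaks. The 5′ end itself, in contrast, lay under RGC Notch alone, at chr19:59452706-59459295 (6.59 kb, cluster 6). Farther away, both RGC lists were called 81.9 to 83.9 kb downstream of the 5′ end (cluster 4). RGC RBPJ alone was called 38.8 kb upstream, and downstream from 73.3 kb and from 167 kb. Under this assignment the pair of genes differed in list as well as in number. There were 2 peaks in 66.6 kb nearest to Emx1 and 6 peaks in 301 kb nearest to Emx2.

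Dmrta2, a doublesex-related zinc-finger factor needed for the caudomedial cortex (chr4:109978053-109983687, plus strand, ENSMUSG00000047143), had 4 peaks and none over its start site. The nearest, of RGC RBPJ alone, ended 3.65 kb upstream (3.48 kb wide, cluster 5). The widest, chr4:109983024-109988226, lay over the 3′ end and was called by RGC RBPJ over its whole 5.20 kb and by IPC Notch over 24.2% (cluster 7). An RGC RBPJ peak of 0.972 kb lay 26.0 kb upstream in an intron of Faf1 (cluster 8), a gene known for its FAS-binding protein. An IPC RBPJ peak of 2.11 kb lay 59.0 kb downstream (cluster 3) and held no GATC site.

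Nr2f1 and Nr2f2 encode the orphan nuclear receptors COUP-TFI and COUP-TFII. Nr2f1 (chr13:78188973-78199757, minus strand, ENSMUSG00000069171), which is required for caudal sensory areas, had 17 consensus peaks, a number reached by 67 protein-coding genes (0.305%). RGC RBPJ was called at 14 of them, RGC Notch at 1, and each IPC list at 3. The peak over its 5′ end, chr13:78199638-78207258, was 7.62 kb wide and in cluster 2. RGC RBPJ covered all of it, RGC Notch 65.1% and IPC RBPJ 17.2%, and the peaks of RGC Notch and IPC RBPJ ended 2257 and 4227 bp before the 5′ end rather than covering it. Close to the gene, RGC RBPJ was also called in an intron (2.67 kb, cluster 5) and just beyond the 3′ end (6.71 kb, cluster 7). IPC Notch alone was called 20.3 kb from the nearest start site (2.45 kb, cluster 2).

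The other 13 Nr2f1 peaks lay 205 to 1193.1 kb upstream, in a stretch without other protein-coding start sites. RGC RBPJ alone was called at 10 of these, with widths from 0.544 to 5.25 kb, in clusters 1, 4, 5, 7 and 8. IPC RBPJ alone was called 245 kb upstream (cluster 7) and IPC Notch alone 381 kb upstream (cluster 6). The thirteenth, chr13:78937388-78938744, lay 738 kb upstream, was 1.36 kb wide and in cluster 2. RGC RBPJ covered 97.5% of it, IPC RBPJ 62.0% and IPC Notch 74.3%, while RGC Notch was not called. The assignment of these far peaks to Nr2f1 rests on distance alone.

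Nr2f2 (chr7:70351944-70366735, minus strand, ENSMUSG00000030551), which in the forebrain is stronger in caudal and ventral progenitors, had 11 peaks but none near the gene. The closest lay 68.2 kb upstream, and the other 10 lay more than 100 kb from the start site. RGC RBPJ was called at 10 of the 11, with widths from 0.528 to 3.33 kb. A peak 403 kb downstream, chr7:69949333-69952323 (2.99 kb, cluster 6), had RGC RBPJ over nearly all of its length and RGC Notch over all. IPC RBPJ alone was called once, 186 kb downstream (1.29 kb, cluster 3), and IPC Notch never. GATC sites were present around its start, 84 within 20 kb on either side, where the other 8 genes had 80 to 111.

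**Figure D3:**
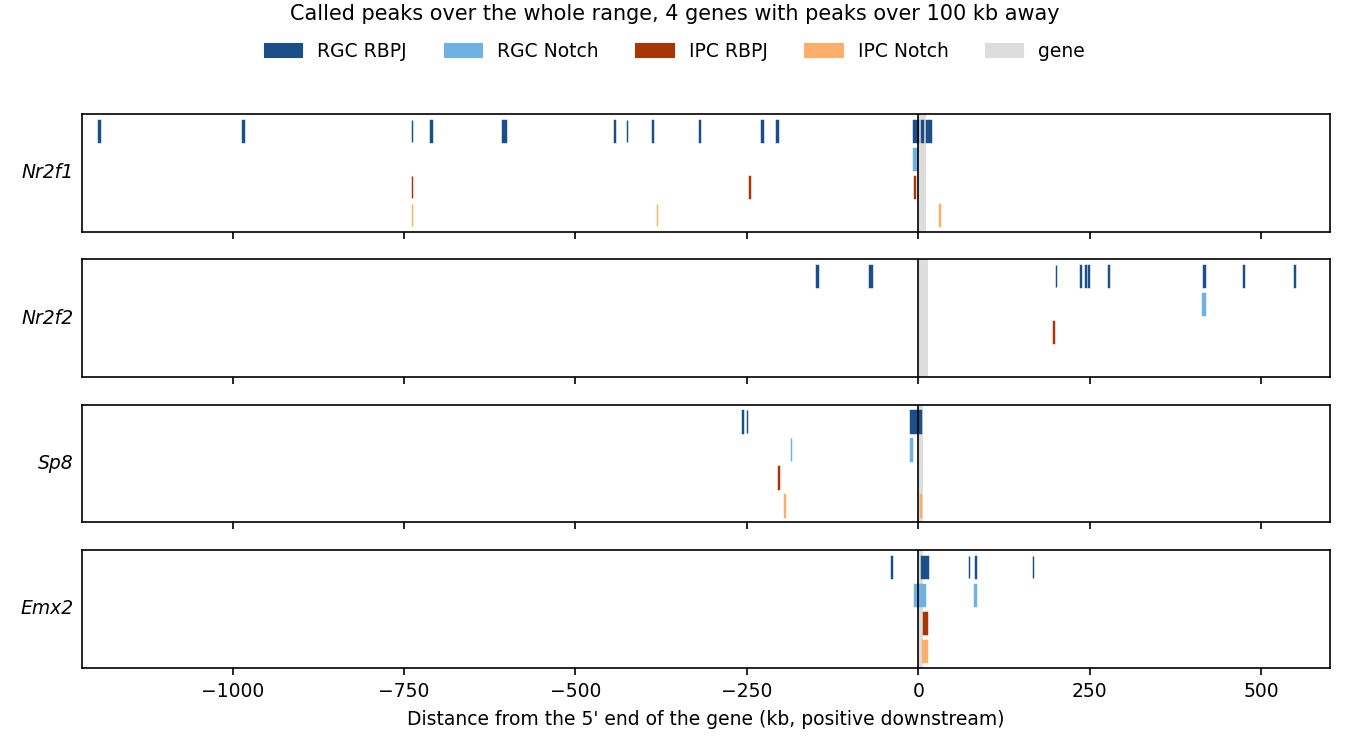
Peaks of each list at the 4 genes with peaks more than 100 kb from a start site, in kb along the direction of transcription, with 1 row of colour per list and the gene in grey. The Nr2f1 peaks extend upstream to 1193.1 kb, most Nr2f2 peaks lie downstream, and single peaks are drawn with a thin outline so that they stay visible.

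Nr2e1, the orphan nuclear receptor TLX (chr10:42561963-42583632, minus strand, ENSMUSG00000019803), had 2 peaks, each called in 2 lists. The peak over its 5′ end, chr10:42582190-42587307 (5.12 kb, cluster 7), also covered the start of Ostm1, a gene of lysosomal and bone biology that is transcribed the other way, and counts for both. RGC RBPJ covered all of it and IPC RBPJ 46.1%, and the IPC RBPJ peak on its own lay nearest to Ostm1. The second peak, chr10:42569426-42575588 (6.16 kb, cluster 5), lay in an intron and had RGC RBPJ over all of it and RGC Notch over 55.6%.

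Sp8, a zinc-finger factor that promotes rostral identity (chr12:118846329-118852576, plus strand, ENSMUSG00000048562), had 7 peaks. The peak over its start, chr12:118837896-118850814, was 12.9 kb wide, and 8 consensus peaks, itself included, were at least as wide. It was in cluster 7. RGC RBPJ covered 98.2% of it, whereas IPC Notch covered 1745 bp, inside the gene from 2.74 to 4.49 kb. The neighbouring peak 9.57 kb upstream (2.85 kb, cluster 4) had RGC RBPJ and RGC Notch over nearly its whole length. The other 5 lay 185 to 255 kb upstream and were each called in 1 list, 2 by RGC RBPJ and 1 by each other list. The narrowest of the 63, an RGC Notch peak of 0.351 kb in cluster 2, was among them and held no GATC site.

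Start sites of protein-coding genes lay under 10 of the 63 peaks (15.9%, 8.86 to 26.8), beside 16.6% of all consensus peaks, and these 10 belonged to 7 genes, all but Dmrta2 and Nr2f2. The 5′ end of the gene record itself lay under a consensus peak at the same 7 genes. Directly at this base, RGC RBPJ was called at Pax6, Lhx2, Nr2f1, Nr2e1 and Sp8, RGC Notch at Pax6 and Emx2, IPC RBPJ at Emx1 and IPC Notch at none. Other annotated start sites do not enter these calls, and both IPC RBPJ peaks of Pax6 covered such sites. At the other extreme, 29 peaks (46.0%, 34.3 to 58.2) lay more than 100 kb from a start site, beside 22.7% of all. Of these, 13 belonged to Nr2f1, 10 to Nr2f2, 5 to Sp8 and 1 to Emx2. By its midpoint, 10 of the 63 peaks lay in an intron of the assigned gene, 5 in an intron of another gene, 1 in an exon, 3 within 5 kb upstream of a start and 44 between genes.

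The sequence that lay nearest to each gene differed in length and was 1433.9 kb for Nr2f1 and 1306.9 kb for Nr2f2 but 48.2 kb for Nr2e1. Per 100 kb of this sequence, Lhx2 had 5.03 consensus peaks (Poisson 95% interval 1.84 to 10.9), Pax6 3.65 (1.57 to 7.19) and Sp8 2.37 (0.953 to 4.88). The nuclear genome had 0.763, below all 3 intervals. Nr2f1 had 1.19 (0.691 to 1.90) and Nr2f2 0.842 (0.420 to 1.51), and both intervals hold the genome's value. Nr2e1 had 4.15 (0.503 to 15.0), Emx1 3.00 (0.364 to 10.8), Dmrta2 2.09 (0.570 to 5.36) and Emx2 1.99 (0.732 to 4.34), with intervals too wide to lie clear of it. So Nr2f1 led by number and Lhx2 by density, and the intervals of neighbouring genes in the order of density overlapped.

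**Figure D4:**
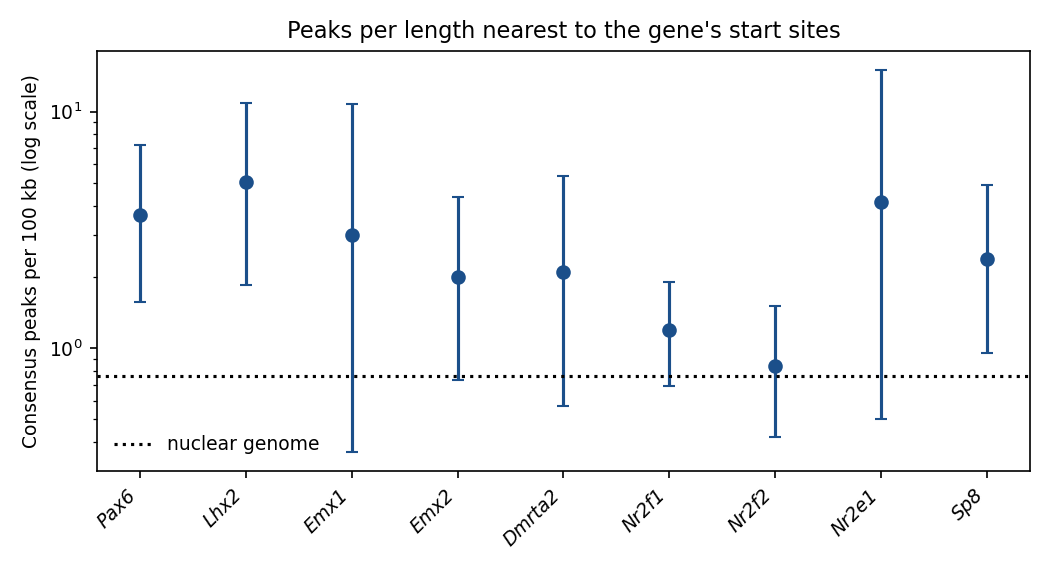
Consensus peaks per 100 kb of the sequence that lies nearer to the start sites of a gene than to those of any other protein-coding gene, on a log scale. Points are the 9 genes, bars are Poisson 95% intervals over peaks, and the dotted line is the nuclear genome at 0.763. The bars of Pax6, Lhx2 and Sp8 lie above the line.

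Peaks near several of these genes were wide. Of the 63, 13 were 5 kb or more (20.6%, 12.5 to 32.2), beside 5.19% of all consensus peaks, and they lay at 7 genes, all but Emx1 and Nr2f2. The median width was 2.37 kb, beside 1.89 kb over all. By list, RGC RBPJ peaks had a median of 2.23 kb (0.528 to 13.2) beside 2.06 kb in the whole list, and RGC Notch peaks 3.43 kb (0.351 to 7.90) beside 2.39 kb. IPC RBPJ peaks had a median of 2.38 kb (0.367 to 4.62) beside 1.40 kb, and IPC Notch peaks 1.27 kb (0.535 to 4.31) beside 1.28 kb. The widths of the 4 lists overlapped. The 29 peaks more than 100 kb away had a median of 1.44 kb, beside 1.78 kb for all such peaks, whereas the 10 over a start site had 7.11 kb, beside 2.60 kb.

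**Figure D5:**
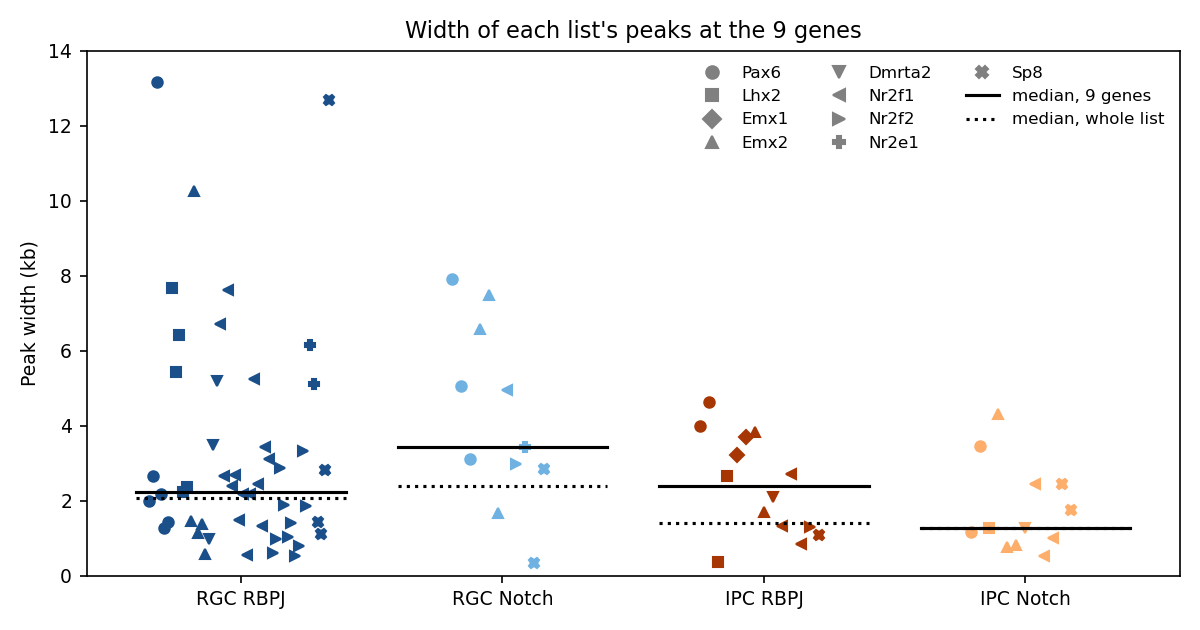
Width in kb of every peak of the 9 genes in each list, with 1 symbol per gene, the median of the 9 genes as a solid line and that of the whole list as a dotted line. Pax6, Sp8 and Emx2 hold the 3 RGC RBPJ peaks above 10 kb, and no IPC peak exceeds 4.62 kb.

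Sequence under the peaks was compared by words on both strands. TTCCCA occurred 236 times in 199 kb, 1.18 per kb (Poisson 95% interval 1.04 to 1.34), beside 1.17 per kb over all consensus peaks. It was found in 53 of the 63 peaks (84.1%, 73.2 to 91.1), beside 82.9% of all, and in at least 2 peaks of every gene. By gene the density ran from 1.02 per kb at Lhx2 and Nr2f2 to 1.60 per kb at Nr2e1. By cluster it was highest in cluster 3, at 1.71 per kb (0.935 to 2.87), and 1.36 per kb (1.11 to 1.64) in cluster 7, beside 1.15 and 1.33 per kb in all peaks of those clusters. The 5 peaks called by IPC Notch alone had 0.590 per kb (0.217 to 1.28), beside 1.04 per kb in all such peaks.

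TAATTA occurred 89 times, 0.446 per kb (0.358 to 0.549), beside 0.358 per kb over all consensus peaks, and in 36 peaks (57.1%, 44.9 to 68.6), beside 45.7% of all. Nr2f2 had the highest density, 0.898 per kb, and Emx1 the lowest, 0.145 per kb. Width and base composition bear on such counts. The median GC content was 42.7%, beside 45.3% over all peaks. In the 29 peaks more than 100 kb away it was 40.0%, and TAATTA reached 0.592 per kb there (0.399 to 0.845), beside 0.475 per kb in all such peaks. GATC sites stood at 2.76 per kb (2.53 to 3.00), beside 2.91 over all, and 3 peaks, at Dmrta2 and Sp8, held none (4.76%, 1.63 to 13.1), beside 9.76% of all. The 6 peaks of IPC RBPJ alone had 1.42 sites per kb (0.866 to 2.19), and all 3810 peaks of this kind had 1.08, where peaks of RGC RBPJ alone had 3.21 in both sets. This difference in GATC between lists applies to every statement above on peaks of IPC RBPJ alone, Emx1 included, and its part in them was not tested.

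Likeness to Pax6 and Lhx2 was measured as the summed absolute difference of 12 counts, namely the peaks in 4 lists and the consensus peaks in 8 clusters, over the 8719 other genes with a peak. Nearest to Pax6 were Clip4 and Mvb12b, each with a difference of 5, and Dapk1, with 6. Clip4 had 9 consensus peaks, Mvb12b 7 and Dapk1 8, beside 8 at Pax6. Near to Lhx2 were Siah3, with a difference of 4, and Prag1, with 5. None of these is among the patterning genes considered here, and ties at the larger differences were broken by number of peaks.

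Other genes of forebrain patterning were counted in 3 lists. Among 13 further dorsal forebrain transcription factors, 12 had a consensus peak. By list, 11 had one of RGC RBPJ and 10 one of RGC Notch, while in IPCs 8 had one of RBPJ and 7 one of Notch. Gli3, the zinc-finger mediator of hedgehog signals, had 21 consensus peaks and Bcl11a 19. Among 12 genes for patterning signals, 8 had a peak. In RGCs, 6 had one of RBPJ and 2 one of Notch, and in IPCs 7 had one of RBPJ and 3 one of Notch. Bmp7 led with 6, followed by Wnt2b and Wnt5a with 3 each and Sfrp2 with 2, and 4 of the 12, Fgf8, Fgf17, Fgf18 and Wnt3a, had none. Among 10 ventral forebrain determinants, 8 had a peak, all 8 of them one of RBPJ in RGCs. A Notch peak in RGCs was found for 4, an RBPJ peak in IPCs for 7 and a Notch peak in IPCs for 4. Olig2 led with 7, followed by Dlx2 with 4 and Gsx2 with 3. The median number of consensus peaks was 6 for the 9 genes, 4 for the dorsal factors, 1 for the signals, 2 for the ventral determinants and 0 over all protein-coding genes.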

How the data were processed

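The authors trimmed the reads, aligned them to mm10 and ran MACS2 in broad mode on each pair of a fusion and a Dam-only sample. Peaks that passed a false discovery rate filter in every pair were retained. Of the deposited data, those used here are 4 pooled lists and 1 file of consensus peaks with k-means clusters. These hold positions only, so depth per sample cannot be read from them and no test over samples was made. Reads and signal tracks were not analysed here. The members and gene lists were chosen with earlier results of these data known.

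Positions were analysed with Python 3.11.15, numpy 2.4.6 and scipy 1.17.1, and figures drawn with matplotlib 3.10.9. Peaks were assigned to the nearest start site of any protein-coding transcript in GENCODE M21, ties counting for each gene, on 21 nuclear chromosomes. A list was counted as called where it overlapped a consensus peak by 1 bp. These overlaps matched the list names of all 20809 consensus peaks. Sequence came from the RefSeq copy of the GRCm38 assembly. Nearest start sites and word counts were tested against exhaustive counting, with identical answers at 300 of 300 and 200 of 200 places. Shares have Wilson and densities Poisson 95% intervals, which cover counting error only. Named genes were the 9 members, genes whose body holds a peak of theirs, up to 3 nearest in pattern to Pax6 and to Lhx2, and up to 4 genes with the most peaks in each further list, with genes without a peak added after their values were seen. Some genes that the rule names are not reported here. Alternatives were other start sites, distance from the midpoint, a limit of 100 kb, a minimum width of 1000 bp, a coverage of 50%, a longer word and the central 500 bp. The 16 samples of full-length Notch, neurons and ubiquitous Dam-only were not analysed here.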

Additional observations from a re-analysis of the deposited data

How the results depend on the processing

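Of the 37 values computed under an alternative, 24 stayed within 1.5 times the count given above, or within its counting interval for word densities, and 13 moved. With start sites of any annotated gene, noncoding ones included, the genes kept 17 consensus peaks in place of 63, 3 in cluster 6, and 12 RGC RBPJ, 7 RGC Notch, 8 IPC RBPJ and 6 IPC Notch peaks, and Nr2f2 kept 0. Within 100 kb of a start site, 34 consensus peaks, 5 of cluster 6 and 26 RGC RBPJ peaks remained. With a coverage of 50% of the consensus peak, IPC RBPJ was called at 8 peaks in place of 14. TTCCCA stood at 0.957 per kb in the central 500 bp, beside 1.18 in all peaks there, and TTCCCAC at 0.346 per kb, beside 0.270. TAATTA stood at 0.766 per kb in the central 500 bp, beside 0.383 in all peaks. The cause of these shifts was not tested, other than that fewer peaks or bases enter by construction. With 1 start site per gene the peaks numbered 66, and by midpoint 62. A stricter peak threshold was not run because every peak has the same score. No replicate was left out, since the lists are pooled. No paired analysis was possible because the lists hold no value of a single sample. These lists give no depth, so a peak missing from a list is not shown to be unbound.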
